A study of Mus musculus with 6 samples.

Results

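Genes for the synthesis of cholesterol and fatty acids were described in dorsal root ganglia of mouse embryos, the clusters of sensory neurons and glia beside the spinal cord. The set holds 31 genes, found by gene symbol, of 17971 genes in the count table. The rule that names them uses no measured value, but they were chosen with earlier results of these data known. It comprises 8 enzymes of the mevalonate pathway and its isoprenoid branch, 11 enzymes from squalene to cholesterol, 6 regulators and carriers, and 6 enzymes of fatty acid synthesis. All 31 passed the filter on low counts, with between 303 and 19687 estimated counts in a library.

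RNA was sequenced from 3 cKO and 3 Ctrl libraries. The cKO embryos had the genotype Wnt1-cre+/-;Ybx1fl/fl, with both copies of Ybx1 floxed and Cre driven by Wnt1, a gene active in the neural crest, from which sensory neurons and glia derive. The Ctrl embryos were littermates of the genotype Ybx1fl/fl, with the same floxed copies and no Cre. All were described as male and were taken at stage E13.5. Since every cKO embryo carried Cre and no Ctrl embryo did, Cre itself and loss of Ybx1 cannot be told apart. Blood vessels, blood cells and macrophages of the ganglia arise outside the neural crest and would keep Ybx1.

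Cholesterol synthesis starts from acetyl-CoA, which is built up through mevalonate into isoprenoids and squalene, closed into a ring by lanosterol synthase and then trimmed to cholesterol. Fatty acid synthesis uses the same acetyl-CoA, and both are switched on by the transcription factors SREBP-1 and SREBP-2, the products of Srebf1 and Srebf2. These are escorted out of the endoplasmic reticulum by Scap when sterols are scarce, and held back with it by the Insig proteins when sterols are plentiful. Growing axons and glia, which make myelin after birth, need much membrane lipid, and nervous tissue makes much of its own cholesterol. Ybx1 encodes an RNA-binding cold-shock domain protein that was first named for binding the Y-box, an inverted CCAAT sequence found in many promoters.

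The bases before the RefSeq start site are shown for members that were called lower in cKO with the replicate number in the model (described below with their values), since SREBPs and the factors that assist them bind close to the start of such genes. Promoter sequence was matched for 4 of these 6: Hmgcs1, Sc5d, Fasn and Acly. Each line gives the 200 bases up to the start site, 5′ to 3′ on the strand of the gene, from RefSeq on GRCm38.p6. Capitals mark the sterol regulatory element in the form TCACNCCAC, the letters CCAAT and the Sp1 letters GGGCGG, each on either strand. The CCAAT letters are those of both the Y-box and the site of the factor NF-Y. The stretches are chr13:119690151-119690350 (plus strand) for Hmgcs1, chr9:42264301-42264500 (minus strand) for Sc5d, chr11:120824548-120824747 (minus strand) for Fasn and chr11:100528001-100528200 (minus strand) for Acly.
Hmgcs1: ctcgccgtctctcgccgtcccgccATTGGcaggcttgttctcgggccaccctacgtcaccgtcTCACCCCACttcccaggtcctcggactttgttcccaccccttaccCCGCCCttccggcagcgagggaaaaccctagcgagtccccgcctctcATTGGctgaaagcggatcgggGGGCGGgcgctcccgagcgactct
Sc5d: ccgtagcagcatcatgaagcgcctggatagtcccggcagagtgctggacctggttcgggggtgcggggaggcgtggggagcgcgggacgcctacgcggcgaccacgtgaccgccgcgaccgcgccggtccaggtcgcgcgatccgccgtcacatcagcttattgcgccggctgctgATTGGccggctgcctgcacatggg
Fasn: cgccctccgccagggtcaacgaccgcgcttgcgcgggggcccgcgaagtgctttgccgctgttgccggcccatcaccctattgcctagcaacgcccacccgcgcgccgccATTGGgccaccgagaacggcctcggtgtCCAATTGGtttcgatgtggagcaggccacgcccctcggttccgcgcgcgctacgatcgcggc
Acly: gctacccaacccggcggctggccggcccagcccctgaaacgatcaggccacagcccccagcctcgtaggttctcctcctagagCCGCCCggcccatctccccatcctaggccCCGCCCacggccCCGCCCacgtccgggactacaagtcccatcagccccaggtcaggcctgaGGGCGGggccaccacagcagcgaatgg

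In Hmgcs1 the sterol regulatory element began at position -137 from the start site, between inverted CCAAT letters at positions -176 and -45. Fasn had 3 matches to the CCAAT letters, at positions -90, -62 and -59, of which the last pair overlap each other as CCAATTGG. Sc5d had 1, at position -24. In Acly none lay before the start site within these 200 bases, and 4 matches to the Sp1 letters did. The wider windows of the same table, 250 bases before to 50 after the start, were searched for 25 members, with 33 start sites. The CCAAT letters were in 22 of the 33 windows (66.7%). They were in 37.5% of the 14529 windows of all genes tested for expression and 37.4% of all 32851 windows. By gene, they were in 21 of the 25 members, against 43.0% of genes tested. Among the 21 was Ggps1, which was not called lower. The Sp1 letters were in 72.7% of the members' windows, against 60.7% of those of genes tested and 35.7% of all. The E-box letters CACGTG were in 18.2%, against 9.49% and 7.15%. TCACNCCAC was in 1 window, that of Hmgcs1 (3.03%), against 1.12% of windows of genes tested and 1.24% of all. Only this string was searched, so its absence does not show that a window lacks a sterol regulatory element. These matches describe letters in a window and do not show that a factor bound there.

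The targeted gene was lower in every library labelled cKO. Ybx1 had 137, 122 and 108 CPM (CPM, counts scaled to library sizes set by TMM, the trimmed mean of M values) in cKO replicates 1, 2 and 3, against 927, 809 and 817 CPM in Ctrl replicates 1, 2 and 3. The mean in cKO was 14.4% of that in Ctrl. Depth was 16464264 to 17446385 counts a library, and 14338 genes were tested. The 10 sensory neuron markers summed to between 6518 and 7472 TPM (a level per transcript length, scaled to the same sum in each library) in cKO and between 6873 and 7103 TPM in Ctrl. In the test with the replicate number in the model (the block, introduced with the comparison), 2 of the 10 were lower in cKO and 0 higher. Of all genes tested, 3.56% were lower and 1.76% higher. The 2 were Isl1, a transcription factor of sensory neurons (log2 fold change -0.21, edgeR adjusted p 0.00833), and Avil, an actin-binding protein gene (-0.22, edgeR adjusted p 0.0123). Of the 10, 6 had a log2 fold change above 0 and 4 below, and the median of the 10 was 0.035. The 9 markers of Schwann cell precursors and satellite glia summed to between 2825 and 2921 TPM in cKO and between 2744 and 2776 TPM in Ctrl, without overlap. Of these, 8 had a log2 fold change above 0, with a median of 0.19, and 5 (55.6%) were higher in cKO with the block, against 1.76% of genes tested. The part of cell makeup in the members' values was not tested. In whole ganglia, fewer cells of a type and less RNA per cell cannot be told apart. Markers of liver and fat, tissues known for lipid synthesis, were near 0, with summed levels of at most 1.17 and 2.77 TPM in cKO and 2.82 and 2.70 TPM in Ctrl. The 8 erythroid genes summed to 58973 TPM in cKO replicate 1 and to between 16162 and 27483 TPM in the other libraries.

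All 31 genes were expressed in the ganglia, at mean levels between 13.9 and 449 TPM over the 6 libraries. The highest was Fdps, the synthase of farnesyl diphosphate, where the sterol and isoprenoid branches part, with a mean of 449 TPM. Scd2, a desaturase that places the double bond of oleic acid, followed at 371 TPM, Hmgcs1, which makes HMG-CoA for the mevalonate pathway, at 336 TPM, and Acly, which makes cytosolic acetyl-CoA from citrate, at 264 TPM. The lowest were Insig2, at 13.9 TPM, and Stard4, a sterol carrier, at 14.2 TPM. Members varied little among libraries. In normalised CPM the highest library was 1.08-fold the lowest for Nsdhl and 1.49-fold the lowest for Scd1, the extremes of the 31.

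**Figure D1:**
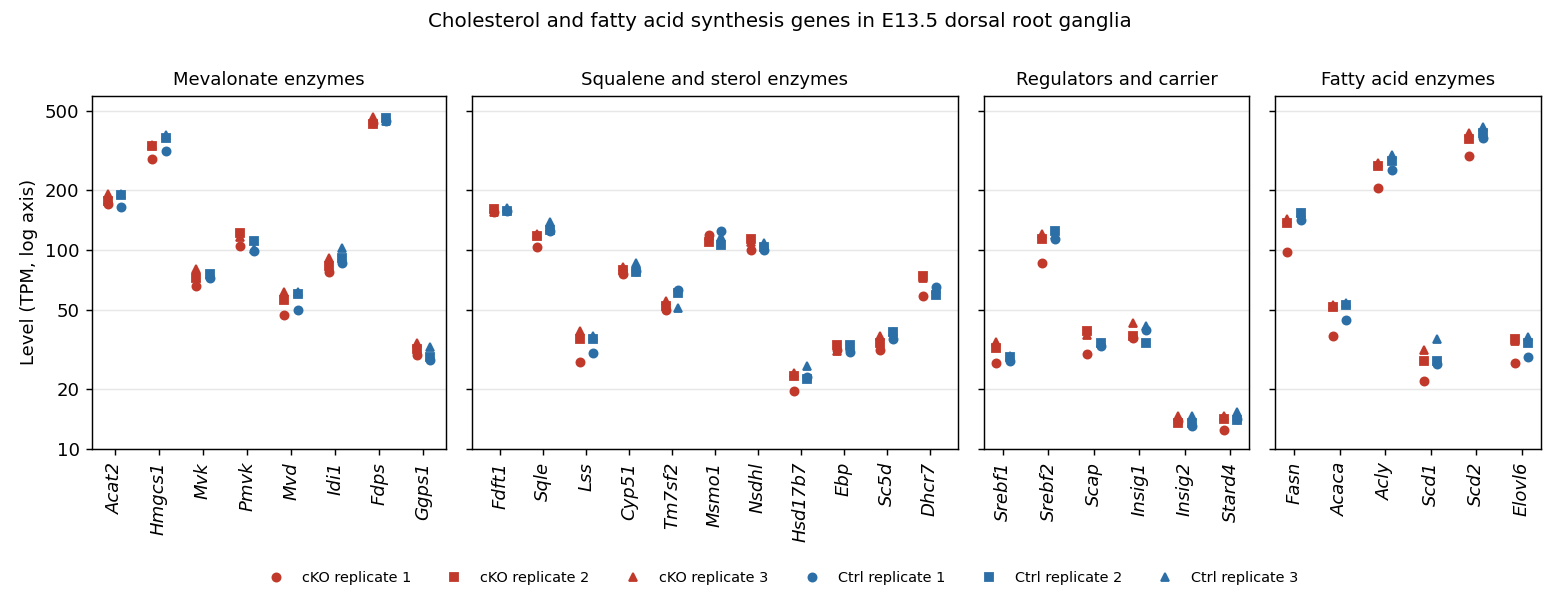
Levels of the 31 genes in TPM on a log axis, with a point for each library, cKO on the left (red) and Ctrl on the right (blue) of each gene, and symbols for the replicate number. Mean levels run from 13.9 TPM (Insig2) to 449 TPM (Fdps), and the points of both groups lie close together for most genes.

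The comparison asked which of these transcripts differ between cKO and Ctrl ganglia. Differences were small and mostly negative: 24 of 31 members had a log2 fold change (cKO over Ctrl) below 0, against 48.6% of all genes tested. The median was -0.045, against 0.0044 for all genes tested. No member passed the test in the model without a replicate term (edgeR quasi-likelihood test, adjusted p under 0.05), where 0.481% of genes passed. At an unadjusted p under 0.05 in that test, 6 members were lower (Idi1, Sqle, Sc5d, Fasn, Acly and Scd2) and 0 higher. Of all genes, 6.10% were lower at that threshold. With adjusted p, DESeq2 and limma-voom without a replicate term likewise called 0 members. The replicate numbers were taken to pair the libraries of both groups. With the number added as a block, 6 members were lower and 0 higher, while 3.56% of all genes were lower and 1.76% higher. The 6 called with the block were Hmgcs1, Sqle, Sc5d, Fasn, Acly and Scd2.

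The 6 calls depended on the pairs used. With the block and without both libraries numbered 1, 7 members were lower (5.1% of genes), the same 6 with Idi1, and 1 of 31 (Dhcr7) was higher, where 3.62% of genes were. Without both numbered 3, 6 were lower (3.84% of genes): Sc5d, Fasn, Acly and Scd2 with Tm7sf2 and Srebf2. Without both numbered 2, none passed (1.28% of genes), and the edgeR adjusted p of the 6 lay between 0.0533 and 0.358, over 4 libraries in place of 6. Their blocked log2 fold changes were then -0.32 for Fasn, -0.23 for Acly, -0.21 for Scd2, -0.16 for Hmgcs1, -0.23 for Sqle and -0.22 for Sc5d, against -0.28, -0.19, -0.18, -0.16, -0.19 and -0.24 over all libraries. With library totals in place of TMM, 4 members were lower (2.81% of genes), and Hmgcs1 (edgeR adjusted p 0.0906) and Sqle (edgeR adjusted p 0.0546) did not pass. The DESeq2 test with the block called 3 lower, Fasn, Acly and Scd2 (1.45% of genes), and limma-voom with the block called the same 6 as edgeR (3.06% of genes).

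**Figure D2:**
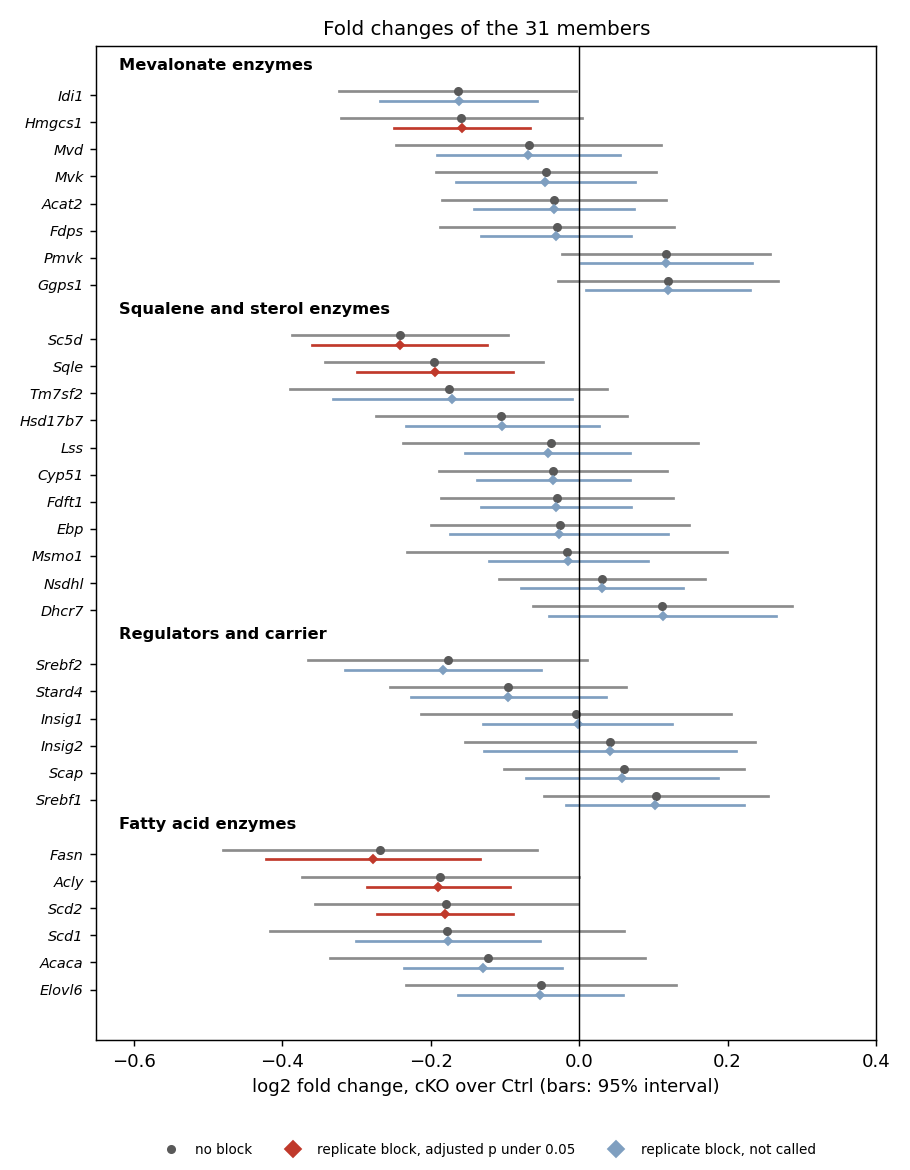
Log2 fold changes (cKO over Ctrl) of the 31 genes, sorted within each role, with 95% intervals. Grey circles are from the model without a replicate term and diamonds from the model with it, red where the adjusted p was under 0.05 and blue elsewhere. The 6 red genes all lie below 0, and most intervals of the other genes include 0.

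The 6 enzymes of fatty acid synthesis had the lowest fold changes as a group, and all were negative. Their median log2 fold change was -0.18, and -0.11 without cKO replicate 1. Fasn, the fatty acid synthase, had 546, 678 and 714 normalised CPM in cKO replicates 1, 2 and 3, against 776, 775 and 783 CPM in Ctrl. All cKO values were below all Ctrl values, and cKO replicate 1 was the lowest by far. The log2 fold change of Fasn was -0.27 (95% interval -0.48 to -0.056, edgeR adjusted p 0.323), and -0.28 with the block (-0.42 to -0.13, edgeR adjusted p 0.0348). Without both libraries numbered 1 it was -0.16 with the block (edgeR adjusted p 0.0155).

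Acly stood at 525, 604 and 625 CPM in cKO replicates 1, 2 and 3 and at 636, 657 and 704 CPM in Ctrl replicates 1, 2 and 3. The groups did not overlap. Its log2 fold change was -0.19, or 12.2% lower (SE 0.085, edgeR adjusted p 0.463), and with the block -0.19 (SE 0.045, edgeR adjusted p 0.0232). Without cKO replicate 1 it was -0.12. Scd2 had the most counts of all members. It stood at 939, 1017 and 1091 CPM in cKO replicates 1, 2 and 3, against 1131, 1112 and 1206 CPM in Ctrl. Again every cKO library was below every Ctrl library. The log2 fold change of Scd2 was -0.18 (edgeR adjusted p 0.457; 0.0232 with the block, 95% interval -0.27 to -0.089).

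Scd1, the close relative of Scd2 that is best known from liver and fat, was much the lower of the pair per length. The TPM ratio of Scd2 to Scd1 lay between 12.4 and 13.6 in cKO and between 11.7 and 14.0 in Ctrl (n = 3 each; exact two-sided permutation p = 0.9). Scd1 itself had 60.8, 68.7 and 77.4 CPM in cKO and 73.2, 70.1 and 90.9 CPM in Ctrl, with overlapping groups. The log2 fold change of Scd1 was -0.18 (blocked 95% interval -0.30 to -0.053, edgeR adjusted p 0.0964 with the block), which moved to -0.055 when Ctrl replicate 3 was left out. Leaving out cKO replicate 1 gave -0.095 and leaving out cKO replicate 3 gave -0.27. Acaca, the acetyl-CoA carboxylase that makes malonyl-CoA, had -0.12 (edgeR adjusted p 0.737, and 0.166 with the block). Elovl6, which lengthens palmitic to stearic acid, had -0.052 (0.889, and 0.648 with the block).

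For each of these 6 enzymes the lowest library was cKO replicate 1 and the highest Ctrl replicate 3. Over all genes tested, cKO replicate 1 was the lowest library for 22.0% and Ctrl replicate 3 the highest for 15.8%. cKO replicate 1 is also the library with the most erythroid RNA. The part of its cell makeup in these low values was not tested. Within replicate numbers, 5 of the 6 enzymes were lower in cKO in all 3 pairs, against 20.3% of genes tested; the exception, Elovl6, was lower in 2. The median difference over the 6 (log2 CPM, cKO minus Ctrl) was -0.27, -0.091 and -0.14 in pairs 1, 2 and 3, so it was negative in each and largest in the pair with cKO replicate 1.

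**Figure D3:**
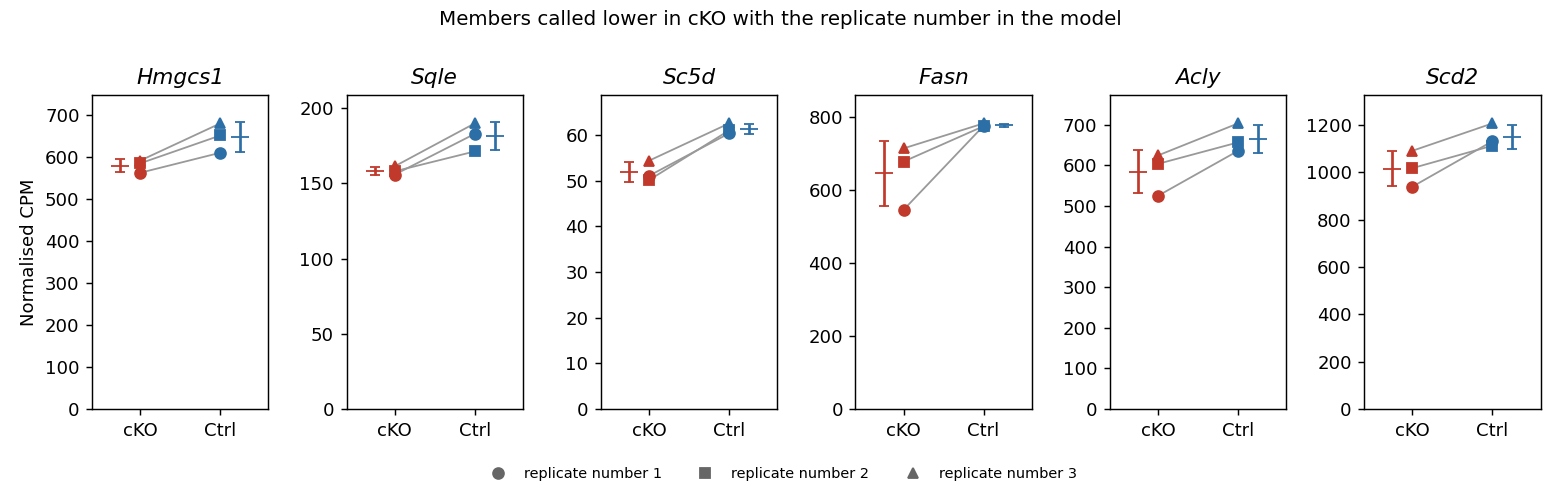
Normalised CPM of the 6 genes called lower with the replicate number in the model, with cKO left and Ctrl right in each panel. Points are libraries, lines join the same replicate number, and bars give the mean ± SD of 3 libraries; every cKO point lies below every Ctrl point of its gene, with Fasn in cKO replicate 1 (546 CPM) the farthest from its group.

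Among the 8 enzymes of the mevalonate pathway and its branch, 1 (12.5%) was lower with the block and 0 higher. Of all genes tested, 3.56% were lower and 1.76% higher. Hmgcs1 (chromosome 13, 119690351 to 119708260, GRCm38) had 562, 584 and 591 CPM in cKO replicates 1, 2 and 3, against 609, 650.2 and 679 CPM in Ctrl replicates 1, 2 and 3. The groups did not overlap, and within pairs cKO was lower by -0.12, -0.16 and -0.20 on the log2 scale. The fold change was -0.16 (SE 0.074, edgeR adjusted p 0.480), with an edgeR adjusted p of 0.0442 with the block. Idi1, the isomerase of isopentenyl diphosphate, had 122, 117 and 128 CPM in cKO and 133, 129.9 and 148 CPM in Ctrl, again without overlap. With a log2 fold change of -0.16, Idi1 did not pass (edgeR adjusted p 0.453, and 0.0726 with the block); without Ctrl replicate 3 it was at -0.11.

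The other 6 enzymes of this group showed smaller values. Fdps had 257, 226 and 244 CPM in cKO and 256, 245 and 240.4 CPM in Ctrl, with overlapping groups and a log2 fold change of -0.030 (95% interval -0.19 to 0.13). Acat2, the cytosolic thiolase at the head of the pathway, Mvk, the mevalonate kinase, and Mvd, the decarboxylase, had -0.034, -0.045 and -0.068. At the other end were Pmvk, the phosphomevalonate kinase, and Ggps1, which makes geranylgeranyl diphosphate for protein prenylation, both with 0.12. Ggps1 had 85.5, 78.5 and 86.0 CPM in cKO and 76.0, 74.4 and 79.7 CPM in Ctrl, which overlap. Pmvk and Ggps1 were the members higher in cKO in all 3 pairs, 2 of 31 (6.45%), against 19.6% of genes tested. Neither passed with the block (edgeR adjusted p 0.259 for Pmvk and 0.225 for Ggps1).

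Of the 11 enzymes from squalene to cholesterol, 2 (18.2%) were lower with the block and 0 higher, against 3.56% and 1.76% of genes tested. Sqle, the squalene epoxidase, a rate-limiting step of the sterol branch, had 156, 158 and 161 CPM in cKO replicates 1, 2 and 3, against 183, 171 and 189.9 CPM in Ctrl. The groups were apart also in TPM, as for no other member: Sqle stood at 104, 118 and 121 TPM in cKO and 124, 126 and 139 TPM in Ctrl. Its log2 fold change was -0.20 (SE 0.067, edgeR adjusted p 0.290, and 0.0311 with the block). Sc5d, which adds a ring double bond late in the pathway (chromosome 9, 42251592 to 42264300, GRCm38), had 51.0, 50.1 and 54.3 CPM in cKO and 60.3, 61.0 and 62.5 CPM in Ctrl. The groups were well apart. Its log2 fold change was -0.24 (95% interval -0.39 to -0.096), or 15.4% lower, with the smallest adjusted p of the set without the block (edgeR, 0.166) and 0.0182 with it.

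The other sterol enzymes did not pass in either model over all libraries. Dhcr7, the reductase that completes cholesterol from its last precursor, had 78.6, 89.4 and 87.2 CPM in cKO and 85.1, 72.2 and 78.8 CPM in Ctrl. Its pairs disagreed, with differences of -0.12, 0.31 and 0.15 in pairs 1, 2 and 3 on the log2 scale. The log2 fold change of Dhcr7 was 0.11 over all libraries (edgeR adjusted p 0.693, and 0.425 with the block), and with the block 0.23 without both libraries numbered 1 (0.00729), where it was called higher, and 0.014 without both numbered 2 (0.979). Without single libraries, and without the block, Dhcr7 lay between 0.051 (without Ctrl replicate 2) and 0.17 (without Ctrl replicate 1), with 0.074 without cKO replicate 2. Fdft1, which makes squalene, had 260.4, 241 and 232 CPM in cKO and 257, 239.9 and 252 CPM in Ctrl, with a log2 fold change of -0.030 (95% interval -0.19 to 0.13). Tm7sf2, a sterol reductase, had -0.18, with 36.0, 33.8 and 35.9 CPM in cKO and 45.2, 40.1 and 34.1 CPM in Ctrl. Hsd17b7, a sterol ketone reductase, had -0.10. The remaining 5 lay between -0.038 and 0.031: Lss, the lanosterol synthase, Cyp51, the first demethylase of lanosterol, Msmo1 and Nsdhl, which remove later methyl groups, and Ebp, a sterol isomerase.

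**Figure D4:**
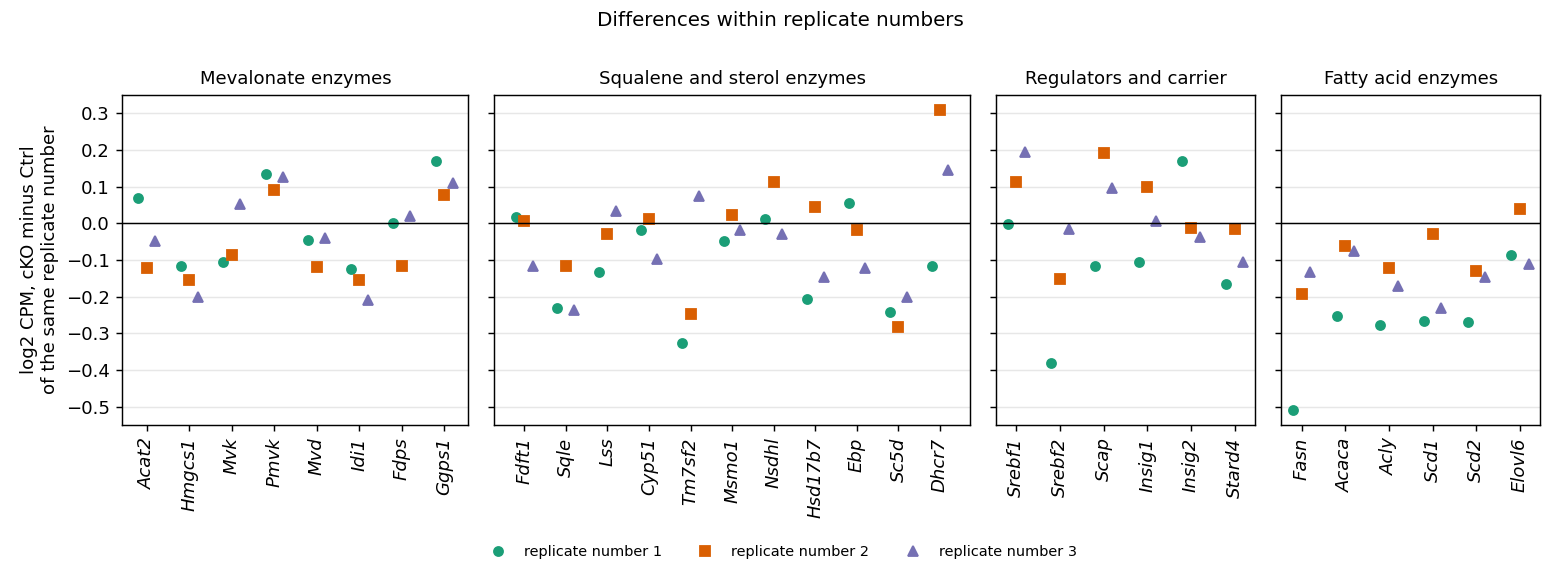
Differences of log2 CPM between cKO and Ctrl libraries of the same replicate number, for each of the 31 genes, with a symbol and colour for each number. All 3 points lie below 0 for 12 genes (38.7%, against 20.3% of genes tested), among them 5 of the 6 fatty acid enzymes. They lie above 0 for Pmvk and Ggps1 (6.45%, against 19.6% of genes tested).

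The regulators did not move as 1 group, and none passed in either model over all libraries. Srebf2 had 240.2, 285 and 300.5 CPM in cKO replicates 1, 2 and 3, against 313, 317 and 304 CPM in Ctrl. The groups did not overlap, but cKO replicate 3 and Ctrl replicate 3 were close. The log2 fold change of Srebf2 was -0.18 (95% interval -0.37 to 0.011, edgeR adjusted p 0.509, and 0.111 with the block). With the block it was -0.084 without both libraries numbered 1 and -0.27 without both numbered 3, where it passed (edgeR adjusted p 0.00457). Srebf1 had 66.5, 69.9 and 75.1 CPM in cKO and 66.6, 64.7 and 65.6 CPM in Ctrl. For Srebf1 the log2 fold change was 0.10 (edgeR adjusted p 0.665, and 0.355 with the block), and 0.053 without cKO replicate 3.

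The TPM ratio of Srebf2 to Srebf1 separated the groups. It was 3.15, 3.55 and 3.49 in cKO replicates 1, 2 and 3, against 4.11, 4.29 and 4.06 in Ctrl replicates 1, 2 and 3. The means were 3.40 ± 0.21 in cKO and 4.16 ± 0.12 in Ctrl (SD, n = 3 each), with an exact two-sided permutation p of 0.1, the smallest that 3 against 3 can give. The ratio of Insig1 to Insig2 was 2.76 ± 0.16 in cKO and 2.80 ± 0.25 in Ctrl (SD, n = 3 each; exact permutation p = 0.8). These were 2 of 3 paralog ratios computed; with Benjamini-Hochberg adjustment over the 3 exact permutation tests the p for Srebf2 to Srebf1 was 0.3.

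Insig1, itself a classical SREBP target, had 52.1, 47.7 and 55.2 CPM in cKO and 56.1, 44.5 and 55.0 CPM in Ctrl. Its groups overlapped fully and its log2 fold change was -0.0048 (95% interval -0.21 to 0.20), with a sign that changed with the scaling (0.022 with library totals). Insig2 had 20.5, 17.9 and 19.3 CPM in cKO and 18.2, 18.0 and 19.8 CPM in Ctrl (log2 fold change 0.042, 95% interval -0.15 to 0.24). Scap, the escort, had 0.060 and Stard4 -0.096.

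Across the whole set, cKO replicate 1 was the lowest library for 14 of 31 members (45.2%) and Ctrl replicate 3 the highest for 15 (48.4%). In normalised CPM the groups did not overlap, with cKO lower, for 8 of 31 members (25.8%), against 8.77% of genes tested. These were the 6 genes called with the block, Idi1 and Srebf2. Pmvk was the 1 member with all cKO libraries higher in CPM, where 7.83% of genes tested were. By TPM the groups did not overlap for 1 member, Sqle. In CPM, cKO was lower in all 3 pairs for 12 members (38.7%), against 20.3% of genes tested. By TPM it was so for 9 members. The share of all genes by TPM was not computed, so that count cannot be weighed. The share of all counts that fell on the 31 genes was 0.546%, 0.582% and 0.607% in cKO replicates 1, 2 and 3 and 0.611%, 0.612% and 0.642% in Ctrl replicates 1, 2 and 3. The 95% intervals of all 31 members lay inside a halving and a doubling.

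Reads of some members can be shared with other genes. Estimated counts were not whole for 3 members, Acat2, Fdft1 and Pmvk. Acat2 has a paralog, Acat3, that was near 1 CPM in all libraries. In GENCODE M21, exons of Fdft1 overlap those of Ctsb, a lysosomal protease gene abundant in macrophages, on the opposite strand over 774 bases (18.3% of the exonic bases of Fdft1), and no source used here states whether the libraries keep strand. Exons of Hmgcs1 overlap an antisense transcript, Gm48342, over 557 bases, and exons of Fdps share 1124 bases (26.7%) with Gm43738 on the same strand; neither of these partners is in the count table. Tm7sf2 shares 12.1% of its exonic bases with Vps51 on the same strand, though its estimated counts were whole in every library. Whether reads of the shared bases affect the values of either gene was not tested. Macrophage markers, 10 genes, summed to between 136 and 187 TPM in cKO and between 109 and 127 TPM in Ctrl; their part in the value of Fdft1 was not tested.

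Genes around the 2 pathways were counted in the same model. Of 14 genes for SREBP processing and its cofactors, 0 were called without the block. With it 3 were lower (21.4%) and 0 higher, where 3.56% of genes tested were lower. Of the 14, 7 had a log2 fold change above 0 and 7 below, with a median of -0.020. The highest was Mbtps1, at 0.12 (edgeR adjusted p 0.637, and 0.196 with the block). Mbtps2, the site-2 protease that releases active SREBP from the membrane, had 40.3, 47.4 and 42.1 CPM in cKO and 54.1, 55.5 and 56.6 CPM in Ctrl, without overlap. Its log2 fold change was -0.36 (SE 0.077, edgeR adjusted p 0.0715, and 0.00295 with the block), lower than that of any of the 31 genes. Marchf6, the ubiquitin ligase that degrades squalene epoxidase, had 159, 174 and 165 CPM in cKO and 192, 199.9 and 206 CPM in Ctrl. For Marchf6 it was -0.26 (edgeR adjusted p 0.136, and 0.00469 with the block). Creb1, a cofactor at some SREBP targets, had 90.4, 88.2 and 91.8 CPM in cKO and 96.0, 104 and 109 CPM in Ctrl, also without overlap. The log2 fold change of Creb1 was -0.19, with an edgeR adjusted p of 0.317, and of 0.04996 with the block, just inside the threshold.

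Of the 32 listed genes for fatty acid elongation, desaturation and activation, 30 were tested. Their median log2 fold change was -0.039, none was called without the block, and 1 was lower (3.33%) and 0 higher with it, a share near the 3.56% of all genes tested. The gene was Elovl2, an elongase of polyunsaturated fatty acids. It had 17.5, 14.2 and 16.3 CPM in cKO and 21.9, 19.8 and 21.0 CPM in Ctrl, without overlap. Between cKO and Ctrl the log2 fold change was -0.38 (edgeR adjusted p 0.132, and 0.00995 with the block). Of the 16 genes of the isoprenoid branch (dolichol, ubiquinone and protein prenylation), none was called in either model, with a median of 0.017. Of 23 genes for sterol uptake, transport and efflux, none was called without the block, and 0 were lower and 1 (4.35%) higher with it, where 1.76% of genes tested were (median 0.023).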

How the data were processed

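RNA-seq of dorsal root ganglia was analysed in 3 cKO and 3 Ctrl libraries. Trizol extraction and a kit for mRNA libraries are recorded in the labels' protocols. The tools RSEM 1.3.1, HISAT2 2.2.1 and Bowtie2 2.4.5 and the build GRCm38 (mm10) are named, with no word on their roles, in the submitters' processing notes. Deposited by the authors were estimated counts, TPM and FPKM for every gene in each library; the FPKM values the authors deposited served only to look at library sums.

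Estimated counts were rounded to whole numbers, filtered with filterByExpr (14338 of 17971 genes kept), scaled by TMM and tested over all genes with the robust quasi-likelihood test of edgeR 4.0.16 in R 4.3.3 (Benjamini-Hochberg, threshold 0.05, two-sided). The main model held the group only, and its p-values set the group difference against the spread among libraries within groups. The replicate numbers were taken to pair the samples: the study describes littermate controls, and same-numbered libraries share the start of a sample code. Deviations of same-numbered libraries from group means correlated at 0.383, 0.220 and 0.189. Correlations across different numbers were not computed, so these values alone cannot show that the numbers pair the samples. A model with the replicate number as a block stands beside the main one. Its p-values use the spread left after the replicate number. SEs come from the fold change and its F statistic. The scripts were tested on simulated data. Alternatives used DESeq2 1.42.0 and limma 3.58.1. Figures were drawn with matplotlib 3.10.9.

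Members, lists and tests were chosen with earlier results of these data known. Values in each library are given for members called in either model, the 2 with the highest mean TPM and those with the largest rise and fall in each role, and the paralog pairs Srebf1 and Srebf2, Insig1 and Insig2, and Scd1 and Scd2; of other lists, for called genes. Values of Tm7sf2 were added after they were seen, and 1 gene that the rule names is not reported here.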

Additional observations from a re-analysis of the deposited data

How the results depend on the processing

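The number of members called lower was 0 in the main model and 6 with the replicate block (3.56% of genes). With the block it was 6 with DESeq2 size factors (3.44% of genes) and 6 with limma-voom (3.06%). It was 4 with the block and library totals (2.81%), and 3 with the block and the DESeq2 test (1.45%). With the block it was 7 without both libraries numbered 1 (5.1%) and 6 without both numbered 3 (3.84%). With no block it was 2 without both numbered 1 (3.13% of genes). The number called higher was 0 in the main model. Without both numbered 1 it was 1 with the block (3.62% of genes) and 1 with no block (282 of 14364 genes). Leaving out single libraries gave 0 members lower and 0 higher each time. The members' median log2 fold change (-0.045) lay between -0.089 and -0.033 without single libraries. With library totals it was -0.018, and -0.019 so with the block, where the median of all genes tested was 0.031 each time. Members below 0 were then 21, and 22 with the block, against 24 in the main model. Over all genes, 69 were called in the main model, 18 to 104 without single libraries, 44 with library totals, 128 with no filter, 184 with the DESeq2 test, and 731, 8 and 2 without both libraries numbered 1, 2 and 3. With the block the count was 764, and 799 with library totals, 731 with DESeq2 size factors, 265 with the DESeq2 test, 638 with limma-voom, and 1252, 260 and 836 without both numbered 1, 2 and 3. Calls in the main model were lower in 76.8% of cases, against 63.6% with library totals; with the block the shares were 66.9% and 50.4%. The causes of these moves were not tested.

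Some log2 fold changes near 0 changed sign. Without single libraries Fdps ranged from -0.074 to 0.016, Fdft1 from -0.077 to 0.0036, Insig1 from -0.11 to 0.056 and Insig2 from -0.0080 to 0.091. Fdps was at 0.0090 without both libraries numbered 2 and at 0.0094 so with the block, and Fdft1 at 0.012 without both numbered 3, with or without the block. Insig1 was at 0.022 with library totals, 0.025 so with the block, 0.00029 with limma-voom, 0.050 without both numbered 1 and 0.052 so with the block. Insig2 was at -0.025 without both numbered 1, with or without the block. The blocked models with DESeq2 size factors, the DESeq2 test and limma-voom were added after seeing the data.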
